A study of Homo sapiens with 12 samples.

Results

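The 40 genes described here encode the heat shock transcription factors HSF1 and HSF2, the HSP70, HSP110 and HSP90 chaperones, their co-chaperones, the small heat shock proteins and the chaperonins. They are a fixed list of symbols, drawn up with earlier results of these data known, and all 40 were found among the 17818 genes of the deposited table. Messenger RNA was measured in 4 groups. They were SW480 cells in which USP51 was overexpressed, set against SW480 cells with a control vector (NC), and HCT116 cells in which USP51 was overexpressed, set against HCT116 cells with the same kind of control (NC). SW480 and HCT116 are established human colorectal cancer lines, and USP51 is a deubiquitinase, an enzyme that takes ubiquitin off other proteins. The labels name 3 libraries in each group, all from cells kept in DMEM with serum at the usual culture temperature with no other treatment, so no group was heat shocked. The labels give neither the vector, nor its promoter, nor whether the cells are clones or pools.

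Every value below is the authors' mean of a group. The means are headed by the line and a letter, E or C, which no label explains. E was taken for USP51 and C for NC, and every direction rests on that reading. The level of USP51, given below, was the check of it. Columns of single libraries exist, but their codes cannot be tied to the labels and they were left out, so no standard deviation, replicate test or p-value is given. A difference is described in 2 ways. The log2 ratio is taken on log2(TPM + 1), where TPM is the deposited level scaled to transcript length and depth. The count ratio is a ratio of estimated counts per total count, with its 95% exact interval in parentheses. The mean is taken as the count of a single library, and only counting error enters the interval. Even where it leaves out 1, the spread between libraries may be larger than the difference. In bulk RNA, fewer cells with a transcript and less transcript per cell cannot be told apart.

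Heat shock proteins hold unfolded proteins, fold them or pass them on for degradation. HSP70 takes up exposed hydrophobic stretches, J-domain proteins bring it clients and stimulate its ATPase, and HSP110 and BAG proteins release its nucleotide. HSP90 matures kinases and hormone receptors with a set of co-chaperones, and the ring-shaped TRiC chaperonin folds actin and tubulin. Under proteotoxic stress HSF1 binds heat shock elements, arrays of the inverted unit nGAAn, in the promoters of many of these genes. The genes HSPA9, HSPD1 and HSPE1 encode mitochondrial proteins, so the set is not wholly cytosolic.

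The promoters were searched for such arrays, because they are the sequence feature that heat-inducible members are known to share. Promoter windows of 250 bases upstream of each start site, from RefSeq (GRCh38.p14), were on hand for 37 of the 40 genes, and HSF1, FKBP4 and STUB1 are named only. A perfect array of 3 units (GAANNTTCNNGAA or TTCNNGAANNTTC, which are each other's reverse complement and so cover both strands) was found in a window of 6 of these 37 genes, a share of 16.2%. Of all 27305 genes with a window, 152 held it, a share of 0.557%. The 6 genes were HSPA8, HSP90AA1, HSP90AB1, HSPD1, DNAJB6 and CHORDC1. An array of 2 units (GAANNTTC or TTCNNGAA, contained in every array of 3) was found in 17 of the 37 genes, against 14.0% of all genes. Some genes have more than 1 window, and the start site of a window need not be that of the transcript measured. Counted from the nearest 5′ end that GENCODE 29 gives the most abundant curated transcript, arrays of 3 units lie upstream in 3 genes, HSPA8, HSPD1 and DNAJB6. In HSP90AA1, CHORDC1 and HSP90AB1 they lie downstream of that end, in HSP90AB1 by 691 bases or more, and the HSP90AB1 window nearest to it holds none. A match is a run of letters, not a binding site. Among windows rather than genes, 6 of 52 held the array of 3 units, against 0.441% of all windows.

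Windows of 6 genes are shown 5′ to 3′, with the array in capitals: 4 with an array of 3 units, and those of HSPA1A and HSPA1B, which hold only an array of 2 units and are compared because their transcripts are hard to tell apart. HSPA8 (chr11:123062137-123062386, minus strand) holds its arrays at positions -230 to -218 and -55 to -43, counted from the start site of the window; the second lies 144 to 156 bases downstream of the GENCODE end. HSP90AA1 (chr14:102087045-102087294, minus strand) holds its array at -88 to -76. In CHORDC1 (chr11:90223050-90223299, minus strand) 3 overlapping matches form a single run from -60 to -38. DNAJB6 (chr7:157336754-157337003, plus strand) holds its array at -131 to -119. The arrays of 2 units lie at -106 to -99 in HSPA1A (chr6:31815293-31815542, plus strand) and at -105 to -98 in HSPA1B (chr6:31827488-31827737, plus strand).
HSPA8: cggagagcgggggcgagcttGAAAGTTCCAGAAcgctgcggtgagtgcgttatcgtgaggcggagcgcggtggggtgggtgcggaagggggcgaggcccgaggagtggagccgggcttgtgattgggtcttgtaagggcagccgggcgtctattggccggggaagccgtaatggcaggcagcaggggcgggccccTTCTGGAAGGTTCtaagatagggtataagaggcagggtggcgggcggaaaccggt
HSP90AA1: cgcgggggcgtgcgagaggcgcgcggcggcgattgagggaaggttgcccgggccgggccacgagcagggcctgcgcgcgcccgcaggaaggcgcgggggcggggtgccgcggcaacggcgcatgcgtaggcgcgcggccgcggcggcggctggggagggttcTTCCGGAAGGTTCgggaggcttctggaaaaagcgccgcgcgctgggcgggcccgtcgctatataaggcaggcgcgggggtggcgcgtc
CHORDC1: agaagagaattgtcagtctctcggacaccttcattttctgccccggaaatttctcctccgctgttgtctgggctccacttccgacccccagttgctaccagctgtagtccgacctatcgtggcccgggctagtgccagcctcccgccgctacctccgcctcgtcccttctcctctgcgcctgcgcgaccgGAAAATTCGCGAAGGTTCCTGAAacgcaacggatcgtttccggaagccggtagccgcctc
DNAJB6: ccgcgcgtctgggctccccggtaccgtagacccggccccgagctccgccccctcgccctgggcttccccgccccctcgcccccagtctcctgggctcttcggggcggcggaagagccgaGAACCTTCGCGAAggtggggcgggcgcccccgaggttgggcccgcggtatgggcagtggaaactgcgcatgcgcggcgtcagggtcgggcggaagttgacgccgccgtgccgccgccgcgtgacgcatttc
HSPA1A: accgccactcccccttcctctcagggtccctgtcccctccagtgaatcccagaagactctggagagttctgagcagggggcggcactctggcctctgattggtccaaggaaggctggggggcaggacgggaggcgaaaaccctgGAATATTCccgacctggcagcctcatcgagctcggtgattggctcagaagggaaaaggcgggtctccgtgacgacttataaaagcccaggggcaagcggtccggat
HSPA1B: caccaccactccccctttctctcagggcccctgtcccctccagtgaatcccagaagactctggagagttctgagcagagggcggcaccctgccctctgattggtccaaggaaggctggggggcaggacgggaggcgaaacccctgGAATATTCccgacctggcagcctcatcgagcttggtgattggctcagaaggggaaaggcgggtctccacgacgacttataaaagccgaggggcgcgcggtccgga

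The HSPA1A and HSPA1B windows were identical at 235 of 249 aligned bases, or 94.4%, and the capital letters are the same in both. The 6 genes with an array of 3 units did not share a direction in either line, as the values below show. Their log2 ratios ran from -0.19 in HSP90AA1 to 0.04 in HSPD1 in SW480, and from -0.17 in HSPA8 to 0.16 in HSP90AA1 and DNAJB6 in HCT116.

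The overexpressed gene was read first, as the check of the letters E and C, and was higher in the E mean of both lines. USP51 stood at 25.7 TPM in SW480 USP51 cells against 0.513 TPM in SW480 NC cells, and at 40.8 TPM in HCT116 USP51 cells against 0 TPM in HCT116 NC cells. The 4 means summed to between 15506686 and 15920306 estimated counts. Epithelial keratins were abundant in both lines (KRT8 at 2904 to 4756 TPM), as was EPCAM at 381.7 to 411.3 TPM. The colonic markers were mixed. CDX2 stood at 25.1 and 29.1 TPM in SW480 USP51 and NC cells, and at 10.4 and 10.7 TPM in HCT116 USP51 and NC cells. VIL1 stood at 12.5 and 7.55 TPM in SW480 USP51 and NC cells but was near 0 in HCT116. CDH17, LGALS4 and CDX1 were at or near 0 in every group. Summed over their lists, leukocyte markers reached at most 2.48 TPM and endothelial markers at most 0.250 TPM. The fibroblast sum was 15.4 TPM in HCT116 USP51 cells and 10.1 TPM in HCT116 NC cells, nearly all of it COL1A1, with PDGFRB, COL3A1, COL1A2 and DCN below 1 TPM. Whether these shifts bear on the chaperone values was not tested.

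The 40 genes ranged widely in level. Together they made up 1.43% of all TPM in SW480 USP51 cells and 1.48% in SW480 NC cells, and 1.72% in HCT116 USP51 cells and 1.69% in HCT116 NC cells. In SW480 NC cells 6 of them stood above 1000 TPM: HSPA8, HSP90AA1, HSP90AB1, HSPB1, HSPD1 and HSPE1. All 40 exceeded 1 TPM in every group, and the lowest single value was 2.21 TPM for HSPA1A in HCT116 USP51 cells.

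**Figure D1:**
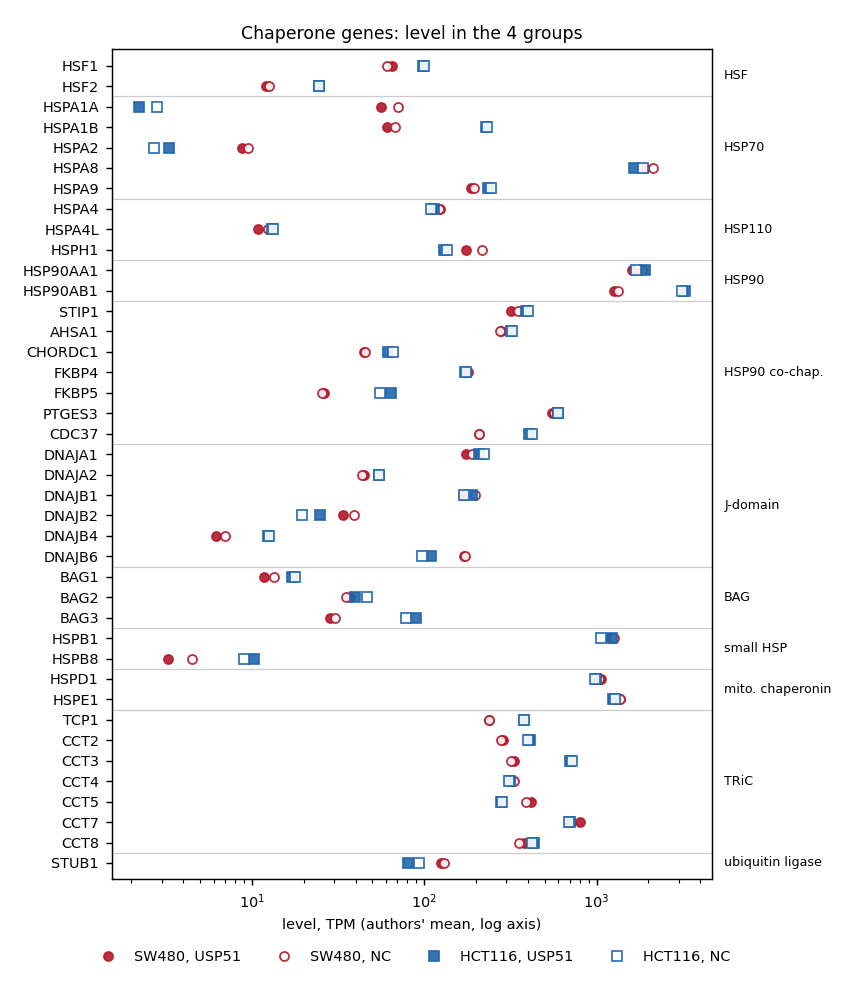
Level of each of the 40 genes in TPM (authors' mean, log axis), ordered by role; filled symbols are USP51 cells, open symbols NC cells, circles SW480 and squares HCT116. Filled and open symbols of a line lie close together for most genes, while circles and squares lie far apart for HSPA1A, whose levels span 2.21 to 70.5 TPM.

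In SW480 USP51 cells, no chaperone gene was 1.2-fold higher than in NC cells, and the genes lower by at least 1.2-fold numbered 3: HSPH1, an HSP110 exchange factor, HSPA1A, a stress-inducible HSP70, and HSPB8, a small heat shock protein. None passed 1.5-fold, as 0.534% of all genes did upwards and 0.879% downwards. Of all 12175 genes with at least 1 TPM, 3.60% were at least 1.2-fold higher and 10.1% at least 1.2-fold lower, so the 3 of 40, or 7.50%, that were lower are a share near the background. Among genes with at least 50 TPM in either group, 1.58% were 1.2-fold higher and 7.66% lower, and HSPA1A and HSPH1 were the 2 of 28 members called there. The median log2 ratio of the 40 was -0.05, against -0.04 for all genes. Among genes with at least 50 TPM it was -0.02 for the members and -0.01 for all. Of the 40, 14 lay above their NC value and 26 below it, and the split depended on the scaling: it was 19 to 21 with FPKM, 21 to 19 with TMM factors and 23 to 17 with RLE factors. Of all genes 38.8% lay above on TPM, 50.6% with FPKM, 52.8% with TMM factors and 54.5% with RLE factors. Among all genes the calls of 3.60% higher and 10.1% lower became 5.86% and 7.12% with RLE factors.

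In HCT116, DNAJB2, a J-domain protein with ubiquitin-binding motifs, was the single member at least 1.2-fold higher with USP51, and no member was 1.2-fold lower. The background in this line leaned upwards, not downwards. Of 12393 genes, 12.1% were higher by at least 1.2-fold and 2.16% lower, and 1.96% and 0.145% passed 1.5-fold, which no member did. The 1 of 40, or 2.50%, that was higher is below the background share. Much of that background comes from less abundant genes: among genes with at least 50 TPM in either group, 3.31% were 1.2-fold higher and 1.73% lower, and of the 31 members in that range none was either. The median log2 ratio of the 40 was -0.01, against 0.04 for all genes but also -0.01 for all genes with at least 50 TPM. There were 19 members above and 21 below their NC value, but 11 above and 29 below with TMM or RLE factors. Of all genes 60.8% lay above on TPM, 47.7% with TMM factors and 48.5% with RLE factors. HSPA1A, at -0.26, lay just short of the 1.2-fold limit and passed it with CPM and with TMM, RLE or upper-quartile factors, where calls stood at 1 higher and 1 lower. Of all genes 10.1% to 11.7% were higher and 2.76% to 3.61% lower there. The interval of the HSPA1A count ratio, 0.761 (0.510 to 1.13), includes 1, and its split from HSPA1B is uncertain, as set out below.

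**Figure D2:**
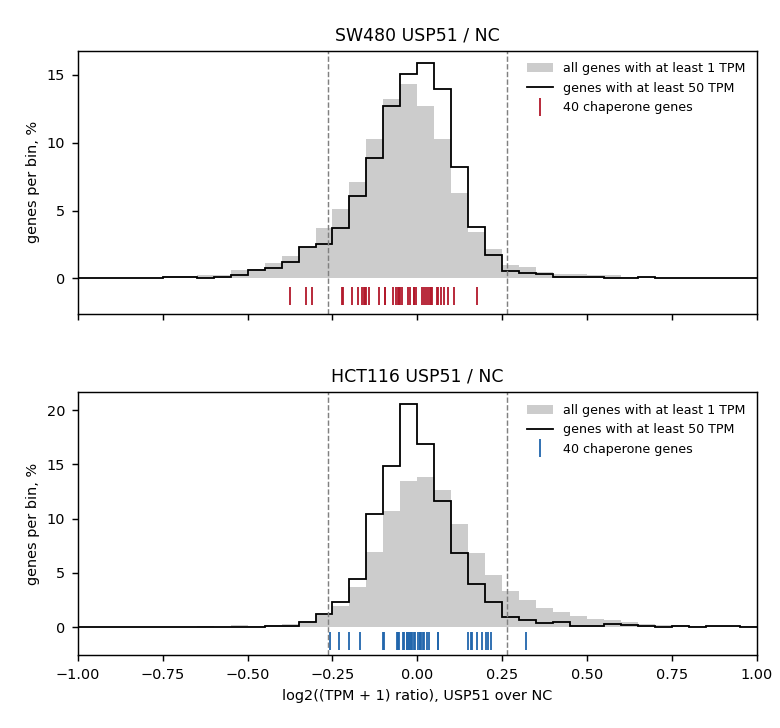
Percentage of genes per bin of 0.05 in log2 ratio, USP51 over NC, in SW480 (upper panel) and HCT116 (lower panel); grey bars are all genes with at least 1 TPM, the black line genes with at least 50 TPM, coloured ticks the 40 genes, and dashed lines mark 1.2-fold. The ticks lie within the bulk of both histograms, between -0.37 and 0.18 in SW480 and between -0.26 and 0.32 in HCT116.

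The difference between the lines, the log2 ratio in HCT116 minus that in SW480, was at least 1.2-fold higher for 6 members: HSPB8, DNAJB2, DNAJB1, HSP90AA1, HSPA2 and BAG3. It was 1.2-fold lower for BAG2 alone, and no member passed 1.5-fold, as 3.95% of all genes did upwards and 0.459% downwards. Of the 11332 genes measured in both lines, 20.9% lay 1.2-fold higher and 4.81% lower, so these counts too are at or below the background. The median difference was 0.03 over the 40 genes and 0.08 over all genes. Higher calls numbered 3 and lower calls 2 with TMM or RLE factors, where 13.4% and 11.6% of all genes (TMM) were called. DNAJB2, DNAJB1 and HSPB8 were called higher and BAG2 lower with each of the 5 other scalings too, and each line has its own NC group. With curated transcripts only, BAG2 was no longer called (a difference of -0.08, against -0.30 on all transcripts), nor was BAG3, while the other 5 were. The difference was not tested over libraries.

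**Figure D3:**
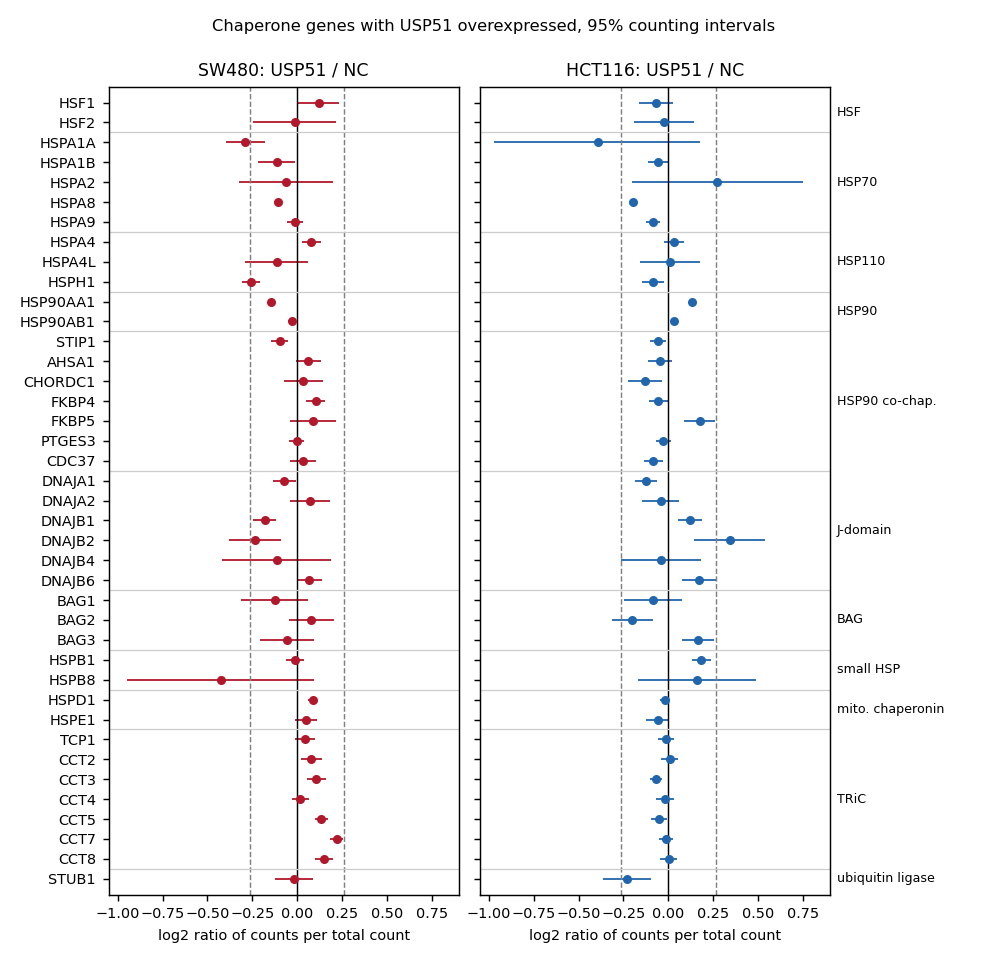
Log2 of the count ratio, USP51 over NC, for the 40 genes in SW480 (left) and HCT116 (right); bars are 95% exact counting intervals and dashed lines mark 1.2-fold. HSP90AA1, HSPA8 and HSPH1 have narrow bars, HSPB8 in SW480 and HSPA1A in HCT116 wide ones, and the TRiC genes lie to the right of 0 in SW480.

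Among the transcription factors, HSF1, the main activator of the heat shock response, had 64.7 TPM in SW480 USP51 cells and 61.2 TPM in SW480 NC cells, and 97.9 TPM in HCT116 USP51 cells and 99.7 TPM in HCT116 NC cells. Its count ratio was 1.09 (1.003 to 1.18) in SW480 and 0.952 (0.893 to 1.02) in HCT116, so the regulator differed little in either line. Its curated transcript accounted for 80.5% of the gene's TPM in SW480 USP51 cells and 70.3% in SW480 NC cells. Counted on that transcript alone, HSF1 was 1.2-fold higher in SW480 (52.1 against 43.0 TPM). HSF2, which can form mixed trimers with HSF1, stood at 12.1 TPM in SW480 USP51 cells and 12.5 TPM in SW480 NC cells, and at 24.6 and 24.4 TPM in HCT116 USP51 and NC cells.

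The HSP70 family lay below its NC value with all 5 genes in SW480, and with 4 of 5 in HCT116. In SW480 this held for all 5 under each scaling but RLE, where HSPA9 changed sign. The family's median log2 ratio was -0.15 in SW480 and -0.06 in HCT116, against -0.04 and 0.04 for all genes. Of all genes 38.8% lay above NC in SW480 and 60.8% in HCT116 on TPM, and 50.3% to 54.5% in SW480 under the other scalings. Among all genes with at least 50 TPM the median was -0.01 in each line. HSPA1A and HSPA1B, 2 of the 5, share most of their sequence and are not separate counts. HSPA8, the constitutive HSC70 and the most abundant member in SW480, had 1921 TPM in SW480 USP51 cells and 2134 TPM in SW480 NC cells, and 1656 TPM in HCT116 USP51 cells and 1862 TPM in HCT116 NC cells. It was lower with USP51 in both lines, with count ratios of 0.928 (0.916 to 0.941) and 0.873 (0.860 to 0.886). These intervals are narrow because of the high counts behind them, and they say nothing of the spread between libraries. HSPA2, best known from the testis, stood at 8.82 TPM in SW480 USP51 cells and 9.49 TPM in SW480 NC cells, and at 3.32 TPM in HCT116 USP51 cells against 2.71 TPM in HCT116 NC cells. Its count ratio in HCT116 was 1.21 (0.870 to 1.68), an interval that includes 1. HSPA9, the mitochondrial HSP70 mortalin, stood at 186.2 TPM in SW480 USP51 cells and 193.9 TPM in SW480 NC cells, and at 235.2 and 244.7 TPM in HCT116 USP51 and NC cells.

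HSPA1A and HSPA1B encode nearly the same inducible HSP70 protein and lie 9795 bases apart on chromosome 6 (HSPA1A at 31815543 to 31817942, HSPA1B at 31827738 to 31830254). HSPA1A had 56.0 TPM in SW480 USP51 cells and 70.5 TPM in SW480 NC cells, and 2.21 TPM in HCT116 USP51 cells and 2.83 TPM in HCT116 NC cells. HSPA1B had 60.5 TPM in SW480 USP51 cells and 67.6 TPM in SW480 NC cells, and 227.0 TPM in HCT116 USP51 cells and 231.8 TPM in HCT116 NC cells. The transcripts are identical at 2300 of 2396 aligned bases, or 96.0%. Of the stretches of 50 bases in HSPA1A, 72.6% also occur in HSPA1B, and 71.4% the other way round, so most reads of that length fit both genes. How such reads were assigned is not given in the sources used here, and the split between the genes is therefore uncertain. Summed as 1 gene, the count ratio was 0.872 (0.828 to 0.917) in SW480 and 0.959 (0.923 to 0.996) in HCT116. The HSPA1A call in SW480, with a count ratio of 0.819 (0.760 to 0.882) of its own, is thus a call on an uncertain split, and the sum is 1.2-fold lower in neither line.

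The HSP110 genes, exchange factors for HSP70, held the most abundant of the SW480 calls. HSPH1 had 174.8 TPM in SW480 USP51 cells and 217.2 TPM in SW480 NC cells, and 129.8 TPM in HCT116 USP51 cells and 135.4 TPM in HCT116 NC cells. The count ratios were 0.836 (0.807 to 0.865) and 0.941 (0.902 to 0.983), and the difference between the 2 log2 ratios was 0.25. The SW480 call is near its limit: the log2 ratio of -0.31 on TPM was -0.26 on CPM, -0.25 with TMM factors and -0.24 with RLE factors, which fall short of 1.2-fold. Predicted transcripts carried 95.3% of HSPH1 TPM in SW480 USP51 cells and 95.9% in SW480 NC cells. Curated transcripts alone gave log2 ratios of -0.11 in SW480 and -0.16 in HCT116. The difference of 0.25 between the lines then became -0.05. HSPA4 stood at 124.2 TPM in SW480 USP51 cells and 121.4 TPM in SW480 NC cells, and at 114.2 and 109.5 TPM in HCT116 USP51 and NC cells. HSPA4L, a related and scarcer gene, had 10.9 TPM in SW480 USP51 cells and 12.5 TPM in SW480 NC cells, and 13.2 TPM in both HCT116 groups.

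The HSP90 pair lay below NC in SW480 and above NC in HCT116, under each scaling tried. On TPM most genes leaned the same ways, with 38.8% of all genes above NC in SW480 and 60.8% in HCT116. With TMM factors these shares were 52.8% and 47.7%. HSP90AA1, the inducible form (chromosome 14, 102080742 to 102139749), had 1605 TPM in SW480 USP51 cells and 1834 TPM in SW480 NC cells, and 1900 TPM in HCT116 USP51 cells and 1702 TPM in HCT116 NC cells. Its count ratios were 0.902 (0.892 to 0.913) and 1.09 (1.08 to 1.11), a difference of 0.35 between the log2 ratios. HSP90AB1, the constitutive form, had 1264 TPM in SW480 USP51 cells and 1328 TPM in SW480 NC cells, and 3252 TPM in HCT116 USP51 cells and 3116 TPM in HCT116 NC cells. There the count ratios were nearer to 1, at 0.981 (0.966 to 0.997) and 1.02 (1.01 to 1.03). With TMM factors the HSP90AB1 log2 ratios were -0.02 in SW480 and 0.01 in HCT116. Their difference was then 0.03, against 0.24 for HSP90AA1, so the contrast between the lines rested mainly on HSP90AA1.

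The HSP90 co-chaperones were close to their NC values, with log2 ratios from -0.14 to 0.06 in SW480 and from -0.10 to 0.20 in HCT116. FKBP5, an immunophilin of steroid receptor complexes that glucocorticoids induce, had the highest ratio in HCT116. It stood at 26.2 TPM in SW480 USP51 cells and 25.4 TPM in SW480 NC cells, and at 63.8 TPM in HCT116 USP51 cells and 55.3 TPM in HCT116 NC cells (count ratio 1.13, 1.06 to 1.198). STIP1, which bridges HSP70 and HSP90, had the lowest ratio in SW480. It stood at 316.8 TPM in SW480 USP51 cells and 349.8 TPM in SW480 NC cells, and at 390.1 and 398.3 TPM in HCT116 USP51 and NC cells.

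The other 5 co-chaperones differed by a log2 ratio of at most 0.06 in size in SW480 and 0.10 in HCT116. AHSA1, an activator of the HSP90 ATPase, had 279.3 TPM in SW480 USP51 cells and 275.3 TPM in SW480 NC cells, and 317.1 and 321.5 TPM in HCT116 USP51 and NC cells. CHORDC1, a zinc-binding HSP90 partner whose window is shown above, had 45.0 TPM in SW480 USP51 cells and 45.2 TPM in SW480 NC cells, and 61.6 and 66.1 TPM in HCT116 USP51 and NC cells. FKBP4, the second steroid receptor immunophilin, kept levels between 171.8 and 178.8 TPM in the 4 groups. Levels of PTGES3, the p23 that steadies the closed HSP90 dimer, ran from 549.8 to 596.6 TPM. CDC37, the kinase adaptor, stood at 207.3 TPM in SW480 USP51 cells and 208.8 TPM in SW480 NC cells, and at 404.6 and 420.9 TPM in HCT116 USP51 and NC cells.

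The J-domain genes held the single HCT116 call. DNAJB2 (chromosome 2, 219279366 to 219286895) had 33.6 TPM in SW480 USP51 cells and 39.3 TPM in SW480 NC cells, and 24.8 TPM in HCT116 USP51 cells and 19.6 TPM in HCT116 NC cells. Its count ratios were 0.850 (0.768 to 0.941) in SW480 and 1.27 (1.11 to 1.45) in HCT116, a difference of 0.54 on the log2 scale. DNAJB1, the main heat-inducible J-domain partner of HSP70, went the same ways. It had 168.2 TPM in SW480 USP51 cells and 196.4 TPM in SW480 NC cells, and 188.6 TPM in HCT116 USP51 cells and 170.0 TPM in HCT116 NC cells. The count ratios were 0.882 (0.843 to 0.923) and 1.09 (1.04 to 1.14). The span of DNAJB1 (chromosome 19, 14514769 to 14560391) overlaps TECR, which stood at 296.1 to 368.1 TPM, by 32666 bases. Without knowing whether counting used strand, reads of the overlap cannot be placed. Most of it lies outside the transcript NM_006145.3, which held 97.3% to 98.0% of DNAJB1 TPM. That transcript, on the minus strand, starts 23 bases from the start site of the window at 14518398. Whether it touches TECR at all was not looked at.

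The remaining J-domain genes lay within 1.2-fold of NC in both lines. DNAJA1 stood at 175.7 TPM in SW480 USP51 cells and 190.3 TPM in SW480 NC cells, and at 208.8 and 223.4 TPM in HCT116 USP51 and NC cells. DNAJA2, its close relative, ran from 43.8 TPM in SW480 NC cells to 55.0 TPM in HCT116 NC cells, with log2 ratios of 0.03 and -0.01. The scarce DNAJB4 had 6.20 TPM in SW480 USP51 cells and 7.02 TPM in SW480 NC cells, and 12.4 and 12.5 TPM in HCT116 USP51 and NC cells. DNAJB6, known for keeping polyglutamine proteins from aggregating, had 170.7 TPM in SW480 USP51 cells and 173.4 TPM in SW480 NC cells, and 109.1 TPM in HCT116 USP51 cells and 97.4 TPM in HCT116 NC cells. In HCT116 its count ratio was 1.13 (1.05 to 1.21).

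Of the BAG genes, which trigger nucleotide release from HSP70, BAG2 and BAG3 lay on opposite sides of NC in HCT116. BAG2, an inhibitor of the ubiquitin ligase CHIP, had 37.1 TPM in SW480 USP51 cells and 35.3 TPM in SW480 NC cells, and 39.5 TPM in HCT116 USP51 cells and 46.5 TPM in HCT116 NC cells, with a count ratio of 0.870 (0.804 to 0.941) in HCT116. Predicted transcripts carried 72.1% to 75.8% of its TPM, and curated transcripts alone gave log2 ratios of -0.01 in SW480 and -0.09 in HCT116, against 0.07 and -0.23 on all transcripts. BAG3, which works with HSPB8 in selective autophagy, had 28.3 TPM in SW480 USP51 cells and 30.3 TPM in SW480 NC cells, and 89.6 TPM in HCT116 USP51 cells and 78.3 TPM in HCT116 NC cells (count ratio 1.12, 1.05 to 1.19, in HCT116). BAG1 stood at 11.8 TPM in SW480 USP51 cells and 13.4 TPM in SW480 NC cells, and at 17.1 and 17.8 TPM in HCT116 USP51 and NC cells. STUB1, the gene of CHIP, had 124.3 TPM in SW480 USP51 cells and 129.8 TPM in SW480 NC cells, and 81.1 TPM in HCT116 USP51 cells and 93.3 TPM in HCT116 NC cells. Its count ratio in HCT116 was 0.853 (0.778 to 0.934), and STUB1 overlaps JMJD8 by 1132 bases.

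The small heat shock genes stand far apart in level. HSPB1, the abundant HSP27, had 1209 TPM in SW480 USP51 cells and 1254 TPM in SW480 NC cells, and 1221 TPM in HCT116 USP51 cells and 1056 TPM in HCT116 NC cells. The count ratios were 0.992 (0.958 to 1.03) and 1.14 (1.10 to 1.18), so the HSPB1 difference was seen in HCT116 and not beyond counting error in SW480. HSPB8 had 3.25 TPM in SW480 USP51 cells and 4.51 TPM in SW480 NC cells, and 10.2 TPM in HCT116 USP51 cells and 8.96 TPM in HCT116 NC cells. It had the lowest log2 ratio of the 40 in SW480, -0.37, but the interval of its count ratio, 0.746 (0.519 to 1.07), includes 1.

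The mitochondrial chaperonin genes HSPD1 and HSPE1 lie head to head 104 bases apart on chromosome 2 and encode the rings and the lid of HSP60. HSPD1 had 1062 TPM in SW480 USP51 cells and 1031 TPM in SW480 NC cells, and 990.1 and 983.4 TPM in HCT116 USP51 and NC cells. HSPE1 had 1375 TPM in SW480 USP51 cells and 1362 TPM in SW480 NC cells, and 1251 and 1286 TPM in HCT116 USP51 and NC cells. Neither log2 ratio exceeded 0.04 in size in either line.

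The TRiC chaperonin was the role with the highest median log2 ratio on TPM in SW480. Of its 7 genes here, 5 lay above NC on TPM (38.8% of all genes) and all 7 with each of FPKM, CPM, TMM, RLE and upper-quartile scaling (50.3% to 54.5% of all genes). The median log2 ratio was 0.06 on TPM and 0.12 with RLE factors, against -0.04 and 0.02 for all genes. For all genes with at least 50 TPM the median was -0.01 on TPM. Summed, the 7 genes had 2783 TPM in SW480 USP51 cells and 2623 TPM in SW480 NC cells. The highest ratio was that of CCT7 (chromosome 2, 73234308 to 73253005), at 805.3 TPM in SW480 USP51 cells and 712.2 TPM in SW480 NC cells, a count ratio of 1.16 (1.14 to 1.19). CCT8 followed at 380.2 TPM in SW480 USP51 cells and 352.7 TPM in SW480 NC cells (1.11, 1.07 to 1.15), and CCT5 at 415.6 and 390.4 TPM in SW480 USP51 and NC cells (1.10, 1.07 to 1.13). No TRiC gene reached 1.2-fold.

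In HCT116 the TRiC genes did not show this. All 7 log2 ratios lay between -0.04 and 0.03, 5 of them above 0 on TPM, 2 with CPM, 1 with FPKM and 0 with TMM, RLE or upper-quartile factors. Of all genes 60.8% lay above on TPM, 53.9% with CPM, 53.3% with FPKM and 47.7% to 51.4% with those factors. CCT7 had 701.5 TPM in HCT116 USP51 cells and 692.3 TPM in HCT116 NC cells. CCT8 had 431.9 and 423.3 TPM in HCT116 USP51 and NC cells, and CCT5 had 278.2 and 283.1 TPM. The median difference between the lines over the 7 genes was -0.08 on TPM and -0.19 with RLE factors, against 0.08 and -0.02 for all genes, and was below that of all genes under each scaling. TCP1, which gave the complex its name, had 238.5 TPM in SW480 USP51 cells and 239.0 TPM in SW480 NC cells, and 381.4 and 377.1 TPM in HCT116 USP51 and NC cells. CCT2 had 285.8 TPM in SW480 USP51 cells and 278.7 TPM in SW480 NC cells, and 411.0 and 401.5 TPM in HCT116 USP51 and NC cells. CCT3 had 331.1 and 317.3 TPM in SW480 USP51 and NC cells, and 704.2 and 724.4 TPM in HCT116 USP51 and NC cells. CCT4 was level across the study, between 311.9 and 332.4 TPM.

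The heat-inducible genes were also read as a subset. These are 17 members that heat is known to induce, among them HSPA1A, HSPA1B, HSPA8, HSPH1, HSP90AA1, DNAJB1, HSPB1 and BAG3. Their median log2 ratio in SW480 was -0.14, with 4 genes above and 13 below NC where 38.8% of all genes were above, against -0.01 for the other 23 members and -0.04 for all genes. With RLE factors the subset had 6 above and 11 below, with a median of -0.08 against 0.02 for all genes. In HCT116 the subset's median was -0.02, with 5 above and 12 below, where 60.8% of all genes were above. The median of all genes there was 0.04. It was -0.01 in each line among genes with at least 50 TPM. On TPM in HCT116, HSP90AA1, DNAJB1, HSPB1 and BAG3 were 4 of the 5 above, by log2 ratios of 0.15 to 0.21. The 12 below included HSPA1A at -0.26, HSPA8 at -0.17 and DNAJA1 at -0.10. For HSPA1A the interval of the count ratio, 0.510 to 1.13, includes 1, and its split from HSPA1B is uncertain. With RLE factors the subset in HCT116 had 4 above and 13 below, with a median of -0.08 against -0.01 for all genes. The medians of the 2 lines were then alike, so the contrast between the lines depended on the scaling. The heat-inducible genes lay on both sides of NC in either line.

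Without USP51, the means of the lines differed more than those of USP51 and NC cells of a line. Between SW480 NC and HCT116 NC cells, 7 members were at least 1.2-fold higher in SW480 NC and 17 at least 1.2-fold lower. Of all 13033 genes 34.8% were higher and 40.8% lower, so 17 of 40 is near the background and 7 of 40, or 17.5%, below it. At 1.5-fold 5 were higher and 11 lower, against 22.6% and 27.0% of all genes. Among genes with at least 50 TPM, 3 of 32 members were 1.5-fold higher and 8 lower, against 24.1% and 20.1%. With TMM or RLE factors the 1.2-fold calls were 10 higher and 15 lower, and 39.0% and 37.3% of all genes. The median log2 ratio was -0.20 over the 40 genes and -0.08 over all genes. Each line is a single line grown apart from the other, and what in them sets these levels was not tested.

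HSPA1A had the highest ratio of SW480 NC over HCT116 NC, a count ratio of 25.2 (19.6 to 33.0), and HSPA1B the lowest, 0.294 (0.277 to 0.310). As the split of their shared reads is uncertain, the sum is the firmer value, and it was 0.577 (0.552 to 0.603), lower in SW480 NC. HSPA1B made up nearly all of the sum in HCT116, while the genes had near-equal parts in SW480. HSPA2 at 3.54 (2.71 to 4.67), DNAJB2 at 2.18 (1.93 to 2.46) and DNAJB6 at 2.06 (1.94 to 2.19) came next among the genes higher in SW480 NC. They were followed by HSPH1, with 217.2 TPM in SW480 NC cells and 135.4 TPM in HCT116 NC cells. Count ratios are not scaled to transcript length. For DNAJB6 the log2 ratio of SW480 NC over HCT116 NC was 0.83 on TPM (173.4 and 97.4 TPM) but 1.03 on CPM.

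Both regulators and 3 of the 7 HSP90 co-chaperones were at least 1.2-fold lower in SW480 NC cells, where 40.8% of all genes were. BAG3 had a count ratio of 0.389 (0.357 to 0.424), HSP90AB1 0.429 (0.424 to 0.435) and CCT3 0.441 (0.427 to 0.455). HSF1 and HSF2 were both lower in SW480 NC, at 0.620 (0.577 to 0.668) and 0.516 (0.449 to 0.593). All 7 HSP90 co-chaperones lay below their HCT116 NC level on TPM, though PTGES3 and FKBP4 changed sign with TMM or RLE factors. FKBP5, at 0.461 (0.426 to 0.498), and CDC37, at 0.5003 (0.479 to 0.523), were the members of that role past 1.5-fold. HSP90AA1, with 1834 TPM in SW480 NC cells and 1702 TPM in HCT116 NC cells, did not share the direction of HSP90AB1. Within TRiC, whose subunits stand in equal number in the complex, the ratio ran from 0.441 in CCT3 to 1.39 (1.35 to 1.43) in CCT5.

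**Figure D4:**
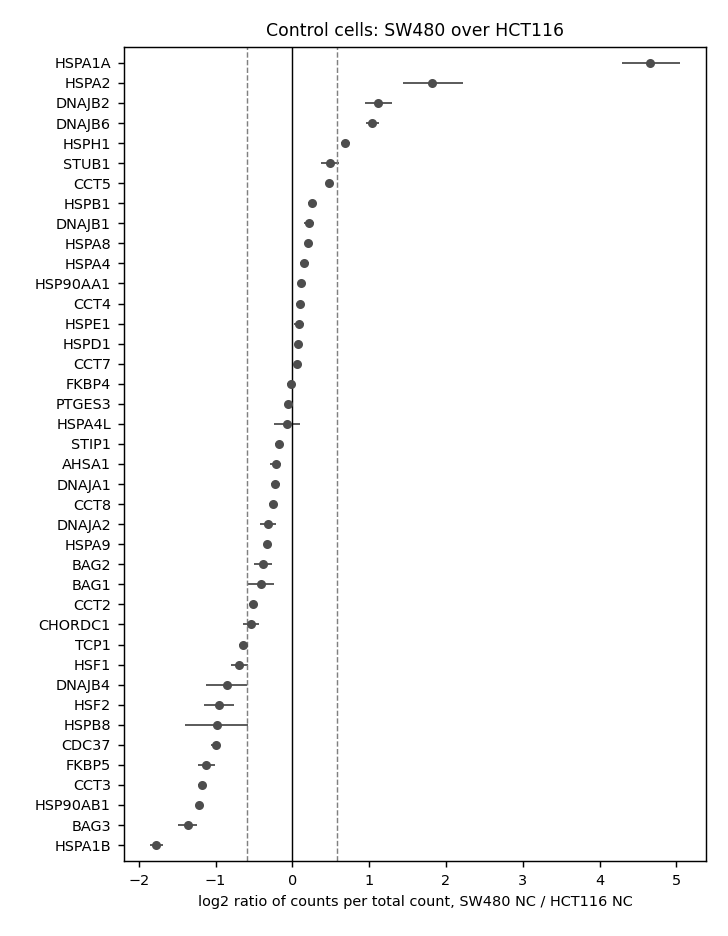
Log2 of the count ratio of SW480 NC over HCT116 NC for the 40 genes, in order of the ratio; bars are 95% exact counting intervals and dashed lines mark 1.5-fold. HSPA1A at the top (count ratio 25.2) and HSPA1B at the bottom (0.294) are the pair that share most of their sequence.

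Transcripts within a gene also differed between the lines. DNAJB6 has a long curated transcript, NM_058246.4, whose protein is nuclear, and a short transcript, NM_005494.3, whose protein is mainly cytosolic. The long form made up 55.8% of the gene's TPM in SW480 USP51 cells and 51.1% in SW480 NC cells, and 32.3% in HCT116 USP51 cells and 28.4% in HCT116 NC cells. For the short form the shares were 32.3% in SW480 USP51 cells and 33.2% in SW480 NC cells, and 49.8% in HCT116 USP51 cells and 53.0% in HCT116 NC cells. The long form thus led in SW480 and the short form in HCT116, and the short form alone was near-equal across groups, at 51.6 to 57.6 TPM. The shorter TCP1 entry NM_001008897.1 held 6.30% of TCP1 TPM in SW480 USP51 cells and 7.58% in SW480 NC cells, and 13.6% and 13.2% in HCT116 USP51 and NC cells. Transcript shares are the authors' estimates and carry no interval here. BAG1 shows a limit of them, since its 4 curated transcripts were each given 25.0% in every group. Other members share sequence or position with a second gene. Of the 50-base stretches, 22.8% of those in HSPE1, 17.8% in HSPD1, 16.6% in HSP90AB1 and 14.9% in HSP90AA1 also occur in other genes, among them the HSPE1-MOB4 readthrough and copies such as HSPD1P1, HSP90AB3P and HSP90AA2P. HSF1, HSP90AA1, HSPE1, DNAJB4, BAG2, TCP1, CCT3 and CCT4 overlap a neighbouring gene by 137 to 3071 bases, and with the strand of counting unknown, reads there cannot be placed.

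**Figure D5:**
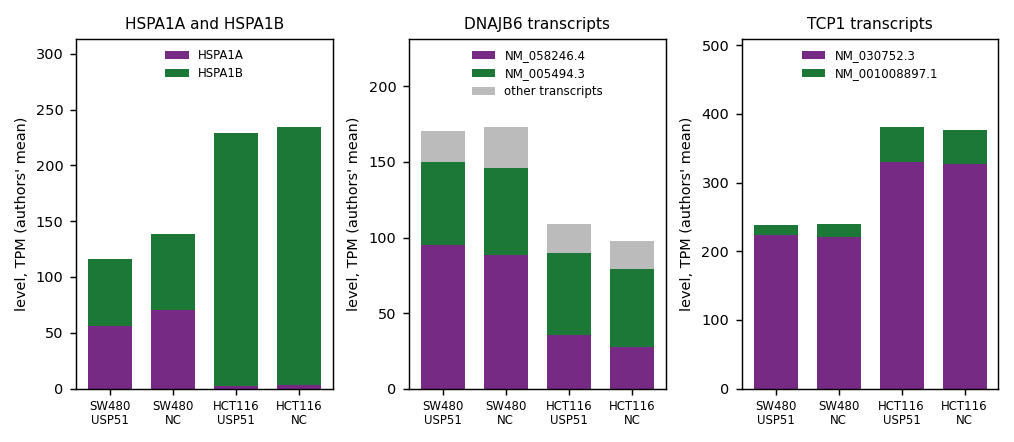
Levels in TPM (authors' mean, stacked bars) of HSPA1A and HSPA1B (left), the DNAJB6 transcripts (middle) and the TCP1 transcripts (right) in the 4 groups. HSPA1B fills almost the whole HCT116 bars but about as much as HSPA1A in SW480, and the long DNAJB6 transcript NM_058246.4 stands at 88.5 TPM in SW480 NC cells and 27.7 TPM in HCT116 NC cells.

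A further 6 lists of 108 related genes set the 40 in their pathway. Few of these genes passed 1.2-fold. Their counts stand against 3.60% of all genes higher and 10.1% lower in SW480, and 12.1% higher and 2.16% lower in HCT116, and with so few genes none is read as a result about a list. In SW480, the 30 measured genes of the other J-domain list gave 0 higher and 2 lower, namely DNAJC19, a subunit of the mitochondrial import motor, and DNAJC13, an endosomal protein. DNAJC19 stood at 39.1 TPM in SW480 USP51 cells and 50.4 TPM in SW480 NC cells, and DNAJC13 at 17.4 and 22.4 TPM in SW480 USP51 and NC cells. Of the 26 other co-chaperones 1 was lower in SW480, the import receptor TOMM70 at 17.4 TPM in SW480 USP51 cells and 22.3 TPM in SW480 NC cells. In HCT116, 1 of 31 other J-domain genes was higher and 0 lower, and of the 26 co-chaperones 0 were higher and 1 lower. Both are scarce and were named after their values were seen: DNAJB5 at 7.73 TPM in HCT116 USP51 cells and 5.41 TPM in HCT116 NC cells, and HSPBAP1 at 5.82 TPM in HCT116 USP51 cells and 7.30 TPM in HCT116 NC cells. The HSP70-binding co-chaperone ST13, at 234.7 TPM in HCT116 USP51 cells and 203.8 TPM in HCT116 NC cells, did not reach 1.2-fold.

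Among other HSP70 and small heat shock genes, 14 of 16 were found and 4 measured in SW480, of which 0 passed in either direction. HSPA12A, a distant HSP70 relative, was the 1 of 5 measured in HCT116 that was 1.2-fold higher. It stood at 16.9 TPM in HCT116 USP51 cells and 13.7 TPM in HCT116 NC cells. In SW480 it stood at 28.8 and 24.6 TPM in USP51 and NC cells, just short of 1.2-fold on TPM. Its count ratio was 1.21 in both lines (1.13 to 1.30 in SW480, 1.10 to 1.33 in HCT116). None of the 10 prefoldin, phosducin-like and remaining TRiC genes passed in either line. Nor did any of the 10 further heat shock response genes, of which 8 lay below NC in SW480 on TPM, but 5 with RLE factors, and 6 in HCT116. Of all genes, 38.8% lay above NC in SW480 on TPM, 54.5% with RLE factors, and 60.8% in HCT116 on TPM. SERPINH1, the collagen chaperone HSP47, had 141.7 TPM in SW480 USP51 cells and 168.0 TPM in SW480 NC cells (count ratio 0.870, 0.826 to 0.915). HSP90B1, the HSP90 of the endoplasmic reticulum, had 764.9 TPM in HCT116 USP51 cells and 686.9 TPM in HCT116 NC cells (1.09, 1.07 to 1.11).

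The mitochondrial chaperones and proteases leaned opposite ways in the lines. Of 13 genes 10 lay above NC in SW480 and 10 below NC in HCT116, and none passed 1.2-fold. Their median log2 ratio was 0.06 in SW480 and -0.06 in HCT116, against -0.04 and 0.04 for all genes. For all genes with at least 50 TPM the median was -0.01 in each line. The counts above NC ran from 10 to 13 in SW480 and from 1 to 3 in HCT116 over the 6 scalings, where 38.8% to 54.5% and 47.7% to 60.8% of all genes lay above. TRAP1, the mitochondrial HSP90, had 243.2 TPM in SW480 USP51 cells and 207.0 TPM in SW480 NC cells, and 292.9 TPM in HCT116 USP51 cells and 310.6 TPM in HCT116 NC cells. In SW480 its count ratio was 1.21 (1.16 to 1.26), although on TPM, the scale of the calls, it stayed within 1.2-fold. GRPEL1, the exchange factor of mitochondrial HSP70, went with it at 53.9 TPM in SW480 USP51 cells and 45.9 TPM in SW480 NC cells. So did TIMM44, which tethers that HSP70 to the import channel, at 66.3 TPM in SW480 USP51 cells and 58.2 TPM in SW480 NC cells. In HCT116 TIMM44 stood at 72.4 TPM in USP51 cells and 81.1 TPM in NC cells.

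Between the NC groups the further lists held wide differences as well. DNAJC12, a J-domain partner of aromatic amino acid hydroxylases, stood at 0.177 TPM in SW480 NC cells and 10.7 TPM in HCT116 NC cells. HMOX1, the heme oxygenase that stress induces, had a count ratio of 0.334 (0.283 to 0.392), lower in SW480 NC. IER5, a cofactor of HSF1, was on the other side, at 47.2 TPM in SW480 NC cells and 22.4 TPM in HCT116 NC cells (2.12, 1.96 to 2.29), while HSF1 itself was lower in SW480 NC.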

How the data were processed

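The labels' protocols name TRIzol extraction of total RNA and BGISEQ500 libraries. The submitters' processing notes list TopHat, DESeq 1.32.0 and hg38 without their roles. The counting tool and its use of strand are not stated there. Per the file headers, the authors deposited 84345 RefSeq transcripts with estimated count values, not divided by depth. They also deposited TPM and FPKM, in which the authors scaled the values to length and depth. For each unit the authors' mean of every group was used. A further 36 columns of single libraries bear codes found in no label and were left out, so the planned edgeR test was not run. The means carry the line and a letter, C or E. No label explains the letters. C was taken for control and E for overexpression, and every direction depends on that reading. USP51 was higher in E than in C in both lines, the direction that this reading calls for.

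Transcripts were summed per gene, and symbols were taken from RefSeq (GRCh38.p14), matching 17672 of 17818 identifiers. Log2 ratios used a pseudocount of 1, which understates differences of low genes, and a floor of 1 TPM in the higher group. A gene was called at 1.2-fold or 1.5-fold, a rule of size. Count ratios carry 95% exact Clopper-Pearson intervals given the sum of both means, rounded to whole counts. PCR copies are not independent molecules, which these intervals ignore. Alternatives were FPKM, CPM, TMM, RLE and upper-quartile factors (edgeR 4.0.16, R 4.3.3), a pseudocount of 0.1, other filters and curated transcripts only, which drops what was assigned to predicted ones. Added after the values were seen were HSPA1A and HSPA1B as 1 gene and the set without HSPA9, HSPD1 and HSPE1.

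The members, lists and markers were chosen with earlier results of these data known. Full values are given for members past 1.2-fold, the 4 highest and 4 lowest ratios of each comparison and a fixed few genes; of each further list at most 3 genes of at least 10 TPM were eligible by size of ratio. Only the intervals of the count ratios were tested on simulated counts, which held counting error and no spread between libraries.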

Additional observations from a re-analysis of the deposited data

How the results depend on the processing

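No paired analysis was possible because the single-library columns carry no name that ties them to the labels; for the same reason leaving out replicates, edgeR and DESeq2 tests and a replicate block were not run. No call changed sign under any alternative. In SW480 the count at least 1.2-fold higher was 1 with curated transcripts only, which adds HSF1. In HCT116 that count was 2 with a pseudocount of 0.1, which adds HSPA2, and 0 among genes with at least 50 TPM, which leaves DNAJB2 out. Of all genes with at least 50 TPM 3.31% were higher. The count at least 1.2-fold lower in HCT116 was 1, HSPA1A, with CPM, TMM, RLE or upper-quartile factors and a pseudocount of 0.1. With CPM and these factors 2.76% to 3.61% of all genes were lower. For curated transcripts only and a pseudocount of 0.1 no share of all genes was counted. Those counts are not read as results about the members. Between the NC groups the median log2 ratio of the members, -0.20, was -0.10 with TMM and with RLE factors and -0.13 among genes with at least 50 TPM, where 3 members were at least 1.5-fold higher. Of all genes with at least 50 TPM 24.1% were. The median difference between the lines, 0.03, was -0.075 with TMM and -0.078 with RLE factors, while that of all genes, 0.08, was -0.02 with either. Of 1396 values of single members under the alternatives, 1223 stayed within the counting interval and 173 did not. A change of filter or of the gene set leaves a member's own ratio as it was. Such values could not move, so the 1223 overstate how steady the ratios were. Small ratios changed sign for 11 members in SW480, 10 in HCT116 and 3 between the NC groups, none above 0.10 in size. Depth limits the scarcest members, such as HSPB8 in SW480 and HSPA1A and HSPA2 in HCT116.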
